A study of Mus musculus with 6 samples.

Results

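Hepatokines are proteins that the liver secretes and that act on metabolism elsewhere in the body. The 9 described here (Fgf21, Gdf15, Angptl4, Angptl8, Inhbe, Fst, Rbp4, Ahsg and Fetub) were taken by gene symbol as secreted liver factors of energy balance, and all 9 were found among the 15960 genes of the expression table. The data are RNA-seq profiles of whole liver from 6 mice, 3 Cyp2e1-/- (knockout) and 3 Cyp2e1+/+ (wild type), labelled C57BL/6 and 22 weeks old. All 6 mice had received a high-fat diet for 14 weeks, so both groups share the diet and no lean group enters the comparison. The comparison asks how loss of CYP2E1, a hepatocyte cytochrome P450 that oxidizes small molecules, bears on these transcripts under that diet. The sources used here do not give the sex of the mice, how the allele was made, or whether the controls were littermates.

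Each of these proteins has a known place in the exchange of fuel between liver and other tissues. FGF21 acts through FGF receptors with the co-receptor beta-klotho, and its gene is a target of the fasting receptor PPARα and of the stress factor ATF4. GDF15 lowers food intake through the hindbrain receptor GFRAL and is induced by ATF4, its partner CHOP and p53. ANGPTL4 and ANGPTL8 control lipoprotein lipase, the enzyme that releases fatty acids from circulating triglyceride; the first rises with fasting and the second with feeding and insulin. INHBE is a hepatocyte subunit of activin E, which restrains fat breakdown in adipose tissue, and follistatin (Fst) binds activins. RBP4 carries retinol in blood, and the fetuins AHSG and FETUB are plasma glycoproteins of the cystatin family that have been linked to insulin resistance.

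Levels are given as FPKM, fragment counts scaled to transcript length and library size. Cyp2e1 itself was at 254, 247 and 271 FPKM in the 3 knockout livers and at 7427, 5942 and 6071 in the 3 wild type livers, as the labels require (limma, log2 fold change -4.64, adjusted p = 6.7e-08). The libraries held 9628 to 9963 genes at 1 FPKM or more. Their depth, estimated from the steps between low values, was about 12700000 fragments in knockout replicate 1 and 9300000 to 10300000 in the other 5. Replicate 1 of both genotypes stood apart: of 9968 tested genes, 76 passed an adjusted p of 0.05 with all libraries and 1183 with these 2 left out (limma). Values without these 2 libraries are therefore given for each hepatokine, and the counts of the further gene lists without them follow the hepatokines. Leaving out libraries because they stand apart can itself narrow the spread within a genotype, so a gene that passes only there has no independent support. The hepatocyte markers were all present, with Alb between 24938 and 33779 FPKM. Of the adipocyte markers, Adipoq, Cfd and Cidea did not exceed 0.19 FPKM in any library, and fat also makes Rbp4 and Angptl4. In whole liver, fewer cells of a type and less RNA per cell cannot be told apart.

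The 9 transcripts spanned a wide range of levels. On the FPKM scale, which is per length, Rbp4 (3447 to 4388 over the 6 libraries) and Ahsg (3194 to 3543) ranked 20 and 24 of all genes by mean level. Together they made up 93.6% to 95.4% of the summed FPKM of the 9. Fetub (228 to 364) and Angptl4 (93.6 to 134) followed, then Inhbe (10.8 to 17.0), Angptl8 (5.50 to 11.4), Fgf21 (3.81 to 7.92) and Gdf15 (1.60 to 6.12). Fst was lowest at 0.25 to 0.67 FPKM. In wild type the ranges of Inhbe and Angptl8 overlapped, as did those of Gdf15 and Fgf21, and all other neighbours in the order were separate. In the knockout the order differed at the low end, with Fgf21 and Angptl8 overlapping and Gdf15 below both. The place of Inhbe is uncertain, since its linked GENCODE transcript has 5319 bases and its RefSeq gene spans 2447, and the length behind its FPKM is not known here.

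**Figure D1:**
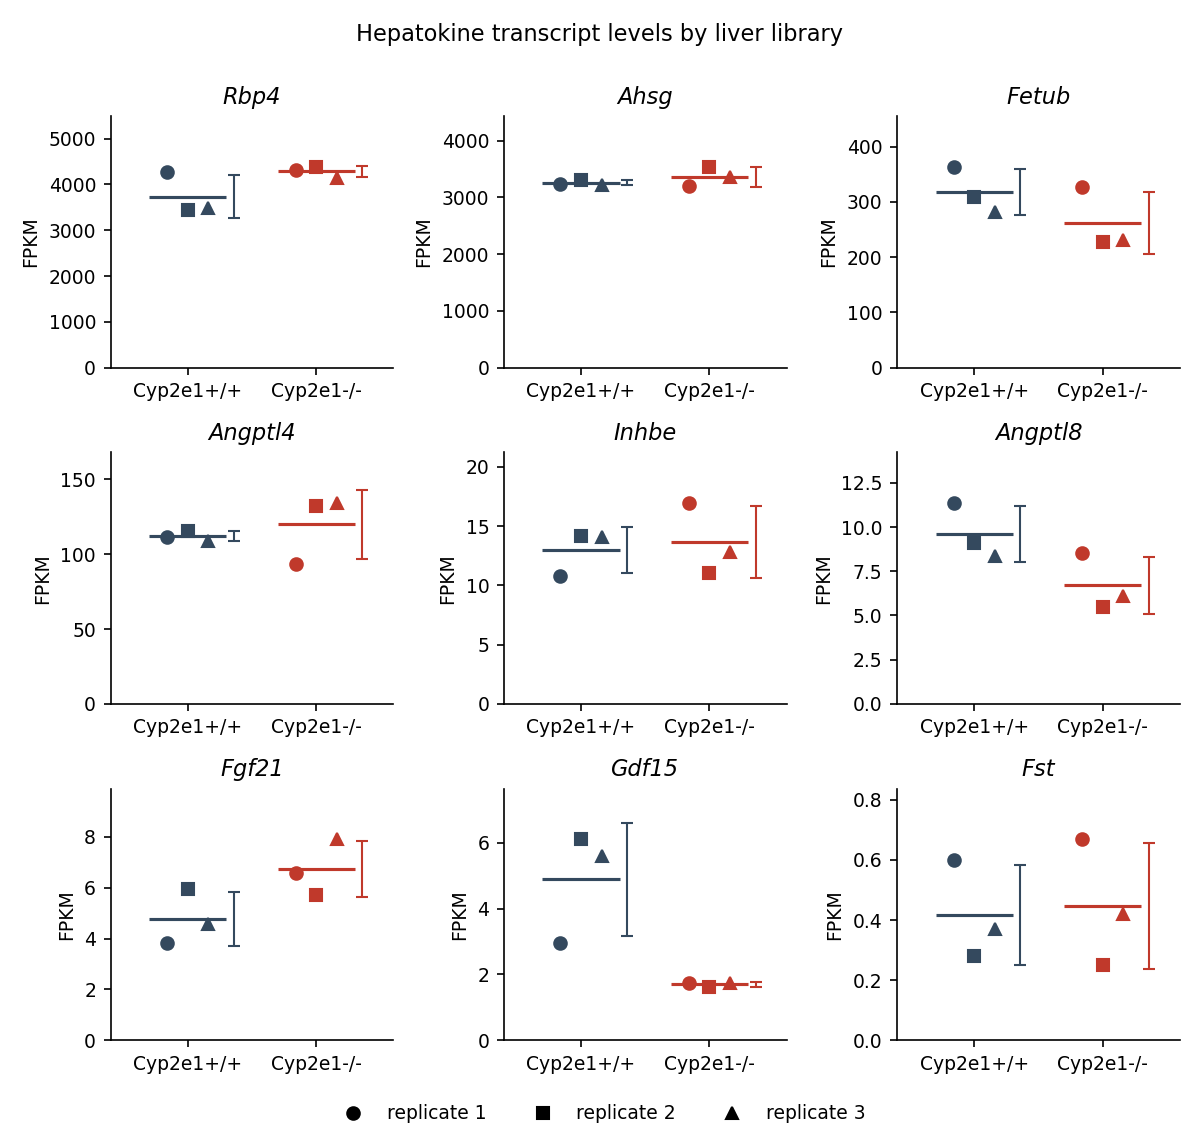
FPKM (y axis, linear, from 0) of the 9 hepatokine genes in each of the 6 liver libraries, by genotype (x axis); symbols mark replicates 1 to 3, horizontal lines the mean and side bars 1 SD on either side of it. Gdf15 is the gene whose genotypes do not overlap, with knockout values of 1.60 to 1.75 under wild type values of 2.94 to 6.12. Replicate 1 stands apart within a genotype for several genes, among them Angptl4, Angptl8, Inhbe and Fetub in the knockout and Gdf15 in wild type.

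None of the 8 hepatokines that passed the filter on low values (at least 1 FPKM in at least 3 libraries; Fst did not pass) reached an adjusted p under 0.05 in limma, where 0.762% of the 9968 tested genes did. At an unadjusted p under 0.05 there were 3, Gdf15, Angptl8 and Fgf21, where 9.93% of tested genes passed. The genotypes were fully separated in 1 of the 8, Gdf15, against 15.4% of tested genes. The log2 fold changes, here always knockout minus wild type of log2(FPKM + 1), were positive in 5 and negative in 3, where 44.2% of tested genes were positive, with a median of 0.05 against -0.028 over all tested genes. With 3 libraries per genotype an exact permutation test cannot go below 0.10.

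Gdf15, the stress-induced appetite-lowering hormone, had the largest fold change of the 8 tested genes. The gene (ID 23886) lies at chr8:70629393-70632470 on the minus strand (GRCm38.p6). Knockout livers gave 1.75, 1.60 and 1.73 FPKM, wild type livers 2.94, 6.12 and 5.61. Every knockout library lay below every wild type library, and wild type replicate 1 was the lowest of its group. The means were 1.69 ± 0.081 and 4.89 ± 1.71 FPKM (SD, n = 3 each), so wild type stood 2.89-fold above the knockout. On the log2(FPKM + 1) scale, which compresses values this low, the difference was -1.08 (SE 0.22, 95% interval -1.57 to -0.59) and did not pass (limma, adjusted p = 0.067, unadjusted 0.00061). Only 0.642% of tested genes had a larger absolute fold change. The exact permutation p was 0.10, the smallest this design can give (two-sided).

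The call for Gdf15 turned on wild type replicate 1. Without that library the log2 fold change was -1.35 and passed (limma, adjusted p = 0.0051), where 1.17% of tested genes passed. It was -1.36 without replicate 1 of both genotypes (limma, adjusted p = 0.00073) and -1.32 with sample quality weights, where 11.5% of tested genes passed (limma, adjusted p = 0.00028). Leaving out any other library gave adjusted p between 0.065 and 0.28 (limma). At the estimated depth the knockout values rest on about 23 to 31 fragments and the wild type values on about 39 to 87. Counting alone would spread such knockout values by 18% to 21%, more than their measured coefficient of variation of 4.81%.

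Gdf15 is also made by macrophages, whose summed marker level was lower in every knockout liver than in any wild type liver. Of 8 macrophage markers 7 had a negative fold change, and none was at 0. Their summed level ran from 58.6 to 102 FPKM in knockout livers and from 113 to 126 in wild type livers. The largest parts of that sum were Clec4f and Lyz2. Clec4f, Cd68 and Lyz2 were fully separated by genotype, where 15.4% of all tested genes were. In the other markers knockout replicate 1 lay in or above the wild type range. Lyz2, the myeloid lysozyme, fell from 31.9 ± 1.27 to 17.3 ± 3.31 FPKM (limma, adjusted p = 0.038), where 0.291% of tested genes fell, and the other 7 did not pass. Leaving out a library other than knockout replicate 1 ended its call (limma, adjusted p = 0.088 and 0.12 without knockout 2 and 3, and 0.059, 0.15 and 0.17 without wild type 1, 2 and 3), and so did a fit with the replicate as a block (limma, adjusted p = 0.082). Without replicate 1 of both genotypes 6 of the 8 markers fell, among them Clec4f and Vsig4 of Kupffer cells (limma, adjusted p = 0.0038 and 0.0032), where 4.95% of tested genes fell. Their part in the Gdf15 difference was not tested.

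Angptl8, the feeding-induced regulator of lipoprotein lipase, was the next lowest in the knockout relative to wild type. The gene (ID 624219) lies at chr9:21835510-21837347 on the plus strand. Its FPKM values were 8.54, 5.50 and 6.10 (knockout) and 11.4, 9.08 and 8.37 (wild type). Only knockout replicate 1 and wild type replicate 3 overlapped, and within each genotype replicate 1 was the highest library. The log2 fold change was -0.47 (SE 0.18, 95% interval -0.87 to -0.07) and did not pass (limma, adjusted p = 0.41, unadjusted 0.027), with an exact permutation p of 0.20 (two-sided). Without replicate 1 of both genotypes it was -0.52 and passed (limma, adjusted p = 0.035), as it did with sample quality weights (-0.53; limma, adjusted p = 0.022). Angptl8 lies inside the gene Dock6 (0.71 to 1.49 FPKM). The use of strand in counting is unknown here, so whether reads of the pair were told apart is not known.

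Angptl4, the fasting-induced inhibitor of lipoprotein lipase, is gene 57875 at chr17:33774900-33781575. In FPKM, the 3 knockout values were 93.6, 132 and 134, the 3 wild type values 112, 116 and 109. The genotypes overlapped, since knockout replicate 1 lay below all other libraries while knockout replicates 2 and 3 lay above them. The log2 fold change was 0.08 (SE 0.15, 95% interval -0.26 to 0.42; limma, adjusted p = 0.93). Without replicate 1 of both genotypes it was 0.25 and just passed (limma, adjusted p = 0.0499). Without knockout replicate 3 it was -0.01.

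Other genes of lipoprotein lipase control gave no call either. None of 10 tested genes passed (limma), 4 had an unadjusted p under 0.05 where 9.93% of all tested genes did, 5 had a positive and 5 a negative fold change, and the median was 0.05. Lpl itself had 1.92 ± 0.21 FPKM against 1.74 ± 0.40, knockout first here and in the pairs that follow. The 2 with the smallest p were both apolipoprotein genes with higher means in the knockout. Apoa5, which raises lipase activity, stood at 547 ± 82.6 against 365 ± 111 FPKM (limma, adjusted p = 0.31), and the lipase cofactor gene Apoc2 at 487 ± 55.5 against 377 ± 52.5 (limma, adjusted p = 0.41).

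Fgf21 had the highest fold change of the 9 in the upward direction. The gene (ID 56636) lies at chr7:45613890-45615490 on the minus strand. Knockout livers gave 6.58, 5.73 and 7.92 FPKM, wild type livers 3.81, 5.94 and 4.56. The genotypes overlapped through knockout replicate 2 and wild type replicate 2, and the other 2 knockout libraries lay above every wild type library. The log2 fold change was 0.43 (SE 0.18, 95% interval 0.03 to 0.83) and did not pass (limma, adjusted p = 0.45, unadjusted 0.036), with an exact permutation p of 0.20 (two-sided). It kept its sign in all 16 other settings, from 0.25 with sample quality weights to 0.57 without wild type replicate 2, and passed in none of them (limma, adjusted p = 0.29 to 0.95). About 47 to 69 fragments stood behind the knockout values and 29 to 49 behind those of wild type.

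The co-receptor gene of FGF21, Klb, had 4.38 ± 0.51 FPKM against 3.60 ± 1.05 (limma, adjusted p = 0.74). Among the FGF receptors, Fgfr4 was the most abundant (6.96 ± 0.76 and 8.12 ± 2.26 FPKM), and Fgfr1, the main partner of beta-klotho for FGF21 in fat, did not exceed 0.60 FPKM. Of 8 tested receptor genes for these hormones none passed (limma), against 2 at an unadjusted p under 0.05 (9.93% of all tested genes), Stra6l and Insr. Stra6l, a liver receptor for RBP4, had all 3 knockout values (13.0 to 14.2 FPKM) below wild type (16.2 to 18.9; limma, adjusted p = 0.37). Such full separation of the genotypes was found in 15.4% of all tested genes. The insulin receptor gene Insr stood at 13.3 ± 3.52 and 9.24 ± 1.47 FPKM (limma, adjusted p = 0.48).

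In the promoters of 3 of these genes stand the same 8 letters of an ATF4-type element, and they are printed to show this. RefSeq promoter windows (GRCm38.p6, 250 bases before to 50 after the annotated start) were matched for 7 of the 9 genes and not for Angptl4 and Fst. The 8-letter core TGATGNAA, searched on both strands, was found in those of Fgf21, Angptl8, Inhbe and Rbp4 (there in 1 of 2 windows). It was in 3.97% of all 32851 windows of that length, and in 4.51% of the 27025 genes with a window. In Fgf21, Angptl8 and Inhbe the letters were the same, TGATGCAA on one strand and TTGCATCA on the other, and in Rbp4 they were TGATGAAA. The lines give 30 bases around each match, on the gene's own strand, with the match in capitals.
Fgf21, chr7:45615611-45615640, minus strand: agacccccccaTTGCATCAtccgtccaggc
Angptl8, chr9:21835369-21835398, plus strand: agccatcagtcTGATGCAAtggctgagcct
Inhbe, chr10:127352011-127352040, minus strand: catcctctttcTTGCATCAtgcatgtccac
Rbp4, chr19:38125379-38125408, minus strand: ccttctaaagaTGATGAAAtgaaagaataa

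The matches begin at -139, -130, -181 and -76 from the RefSeq starts of Fgf21, Angptl8, Inhbe and Rbp4. For Inhbe and Rbp4 the linked GENCODE transcripts begin elsewhere than these RefSeq starts. A match is a run of letters and not a measured binding site. The 4 genes did not share a direction, with log2 fold changes of 0.43, -0.47, 0.05 and 0.20. The 200 bases before the starts of Fgf21 and Angptl8 are given because these 2 genes had opposite fold changes with the same 8 letters. In Fgf21 the capitals also mark an E-box, CACGTG, the core of the sites that ChREBP and clock factors bind.
Fgf21, chr7:45615491-45615690, minus strand: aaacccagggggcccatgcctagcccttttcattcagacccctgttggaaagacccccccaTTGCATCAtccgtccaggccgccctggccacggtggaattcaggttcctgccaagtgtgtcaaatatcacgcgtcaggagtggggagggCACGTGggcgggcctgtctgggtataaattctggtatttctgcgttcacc
Angptl8, chr9:21835310-21835509, plus strand: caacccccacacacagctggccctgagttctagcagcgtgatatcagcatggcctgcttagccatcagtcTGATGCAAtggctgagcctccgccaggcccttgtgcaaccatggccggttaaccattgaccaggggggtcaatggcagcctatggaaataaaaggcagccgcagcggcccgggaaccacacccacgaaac

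The windows of Gdf15, at its 2 annotated starts, held no TGATGNAA, which says only that these letters are not in them. The inner of these starts, at position 70632095, is that of the GENCODE transcript linked to the transcript in the authors' table, and its window held a CACGTG, as did 7.15% of all windows. It is shown with its neighbours, capitals marking the match.
Gdf15, chr8:70632161-70632190, minus strand: cacagggcagggCACGTGtgagcatccagt

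The nuclear receptor motif AGGTCA, also searched on both strands, occurred in 1 of the 7 genes, Gdf15. It was in 16.3% of all windows and in 18.1% of all genes with a window. The PPARα-type element, a direct repeat of that motif with 1 base between, was in none of the 7 and in 0.0396% of all windows.

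Among genes that respond to ATF4, as Fgf21 and Gdf15 do, Asns and Cth fell. This list, like the other gene lists, was chosen with earlier results of these data known, so its counts against all tested genes are descriptive. Of 15 tested genes on that list 2 fell, where 0.291% of tested genes fell, none rose and 13 did not pass (limma); 9 had a negative fold change and the median was -0.09. The asparagine synthetase gene Asns was at 0.45, 0.74 and 0.75 FPKM in knockout livers and at 15.3, 7.33 and 9.50 in wild type livers (log2 fold change -2.78, SE 0.23; limma, adjusted p = 0.00032). Cth, the cystathionine lyase of cysteine synthesis, fell from 102 ± 23.7 to 55.5 ± 2.18 FPKM (limma, adjusted p = 0.048). Leaving out knockout 2, knockout 3, wild type 2 or wild type 3 ended the call of Cth (limma, adjusted p = 0.19, 0.17, 0.057 and 0.16), as did the replicate as a block (limma, adjusted p = 0.092). Chosen after their values were seen, Ddit3, which encodes CHOP, stood at 3.22, 2.57 and 1.44 against 3.97, 5.49 and 3.78 FPKM (limma, adjusted p = 0.28), and Atf4 itself at 33.4 ± 1.61 against 35.6 ± 1.06 (limma, adjusted p = 0.88). The TGATGNAA core was in 7 of the 18 genes of this list with a promoter window, Asns among them, and in 4.51% of all genes with a window.

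Among PPARα targets, which Fgf21 and Angptl4 also are, Cyp4a10, Cyp4a14, Cyp4a31 and Acot3 rose. That list too was chosen with earlier results known, and Cyp4a10, Cyp4a14 and Cyp4a31 belong to the same gene family. Of 20 tested, 4 rose, where 0.472% of tested genes rose, none fell and 16 did not pass (limma), and 16 had a positive fold change (median 0.24). The log2 fold changes were those of the fatty acid omega-hydroxylase genes Cyp4a10 (log2 fold change 1.31; limma, adjusted p = 0.00088), Cyp4a14 (1.69; limma, adjusted p = 0.0020) and Cyp4a31 (1.43; limma, adjusted p = 0.0093) and the thioesterase gene Acot3 (0.95; limma, adjusted p = 0.045). Cyp4a31 did not pass without knockout replicate 2 (limma, adjusted p = 0.064). Acot3 did not pass with any one of knockout 1, 2 and 3 and wild type 2 and 3 left out (limma, adjusted p = 0.055, 0.21, 0.066, 0.20 and 0.17). Fgf21 (0.43) lay above and Angptl4 (0.08) below the list median of 0.24. Both lay below the 4 genes that passed, whose fold changes are high by selection. Ppara, chosen after its values were seen, stood at 35.5 ± 10.9 and 32.7 ± 11.5 FPKM (limma, adjusted p = 0.95).

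Among lipogenic genes that insulin and ChREBP induce, as they do Angptl8, Thrsp and Pklr fell. Of 14 tested, 2 fell, where 0.291% of tested genes fell, none rose and 12 did not pass (limma); 12 had a negative fold change (median -0.34). Thrsp, a lipogenic regulator, fell by 1.14 on the log2 scale (limma, adjusted p = 0.0014), and Pklr, liver pyruvate kinase, by 0.86 (limma, adjusted p = 0.016). Pklr did not pass with knockout 2, wild type 2 or wild type 3 left out (limma, adjusted p = 0.071, 0.10 and 0.081). The -0.47 of Angptl8 (limma, adjusted p = 0.41) lay between the median of this list and its called members, whose fold changes are large by selection. This list too was chosen with earlier results known, and whether Angptl8 moves with these genes was not tested. Among 12 tested transcription factors of these pathways none passed (limma), with 2 at an unadjusted p under 0.05 (9.93% of all tested genes), Hnf4a (97.2 ± 3.39 against 77.8 ± 11.1 FPKM) and Esrra (12.9 ± 2.62 against 8.94 ± 2.14).

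**Figure D2:**
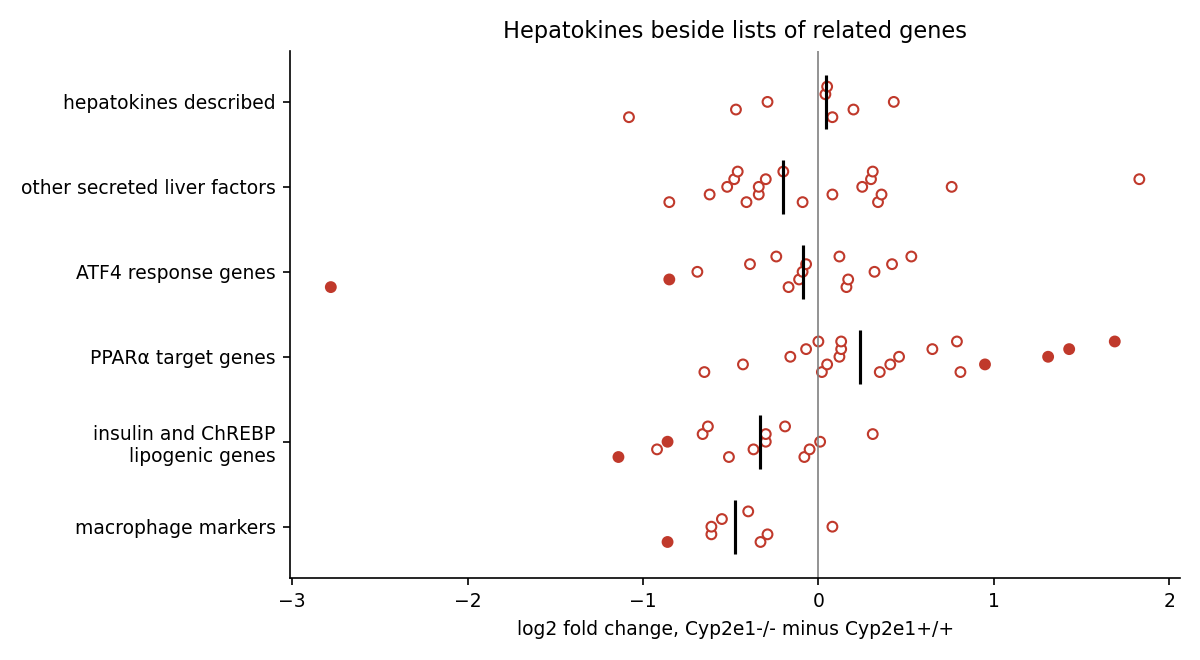
Log2 fold change of log2(FPKM + 1), knockout minus wild type (x axis), of the tested genes of 6 lists (y axis); each point is a gene, filled where its adjusted p was under 0.05, and vertical bars are list medians. No hepatokine described is filled, Gdf15 is the leftmost of them at -1.08, and Asns is the leftmost point of all at -2.78.

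Inhbe, the activin E subunit, did not separate by genotype. The gene (ID 16326) lies at chr10:127349402-127351848 on the minus strand. Its FPKM values were 17.0, 11.1 and 12.9 (knockout) and 10.8, 14.2 and 14.1 (wild type). Replicate 1 was the highest knockout library and the lowest wild type library, so the 2 outer values of the gene came from the pair that stood apart. The log2 fold change was 0.05 (SE 0.18, 95% interval -0.34 to 0.45; limma, adjusted p = 0.97), and it was -0.23 without replicate 1 of both genotypes (limma, adjusted p = 0.24). Its paralogue Inhbc, also a hepatocyte gene, stood at 18.8 ± 1.68 and 17.7 ± 5.67 FPKM (limma, adjusted p = 0.92).

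Fst, which encodes the activin-binding follistatin, was near the limit of detection. The gene (ID 14313) lies at chr13:114452262-114458989. In FPKM, the 3 knockout values were 0.67, 0.25 and 0.42, the 3 wild type values 0.60, 0.28 and 0.37. These values rest on about 7 to 23 fragments per library, and replicate 1 was the highest in both genotypes. Counting alone would spread the knockout values by 20.9% to 37.8%. The exact permutation p was 0.80 (two-sided), and the genotypes overlapped throughout. Of 7 tested genes of the activin and follistatin family none passed (limma) and none had an unadjusted p under 0.05. The smallest p were those of Smad7, an inhibitor of the pathway (1.85 ± 0.50 against 1.22 ± 0.16 FPKM; limma, adjusted p = 0.55), and of the co-receptor gene Tgfbr3 (1.78 ± 0.27 against 2.09 ± 0.39; limma, adjusted p = 0.85). The activin E receptor gene of fat, Acvr1c, was listed at 0 to 0.01 FPKM.

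Rbp4, the most abundant of the 9, is gene 19662 at chr19:38116620-38125321 on the minus strand. Knockout livers gave 4318, 4388 and 4138 FPKM, wild type livers 4265, 3447 and 3489. The knockout libraries lay close together, and wild type replicate 1 lay among them while wild type replicates 2 and 3 lay below. The log2 fold change was 0.20 (SE 0.14, 95% interval -0.12 to 0.53; limma, adjusted p = 0.71), with an exact permutation p of 0.20 (two-sided). Without replicate 1 of both genotypes it was 0.30 and passed (limma, adjusted p = 0.0093). Of 6 tested genes of retinol transport and storage none passed (limma) and none had an unadjusted p under 0.05. Ttr, the plasma partner of RBP4, stood at 4455 ± 164 and 5037 ± 778 FPKM (limma, adjusted p = 0.80), the opposite sign to Rbp4, and the retinol dehydrogenase gene Rdh11 at 5.96 ± 0.17 and 6.71 ± 1.0 (limma, adjusted p = 0.84).

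The fetuin genes Ahsg and Fetub (IDs 11625 and 59083) lie side by side on the plus strand, at chr16:22892015-22899451 and chr16:22918382-22939768 (GRCm38.p6). Ahsg, which encodes fetuin-A, an inhibitor of the insulin receptor, varied little, with 3194, 3543 and 3352 FPKM in knockout livers and 3239, 3309 and 3225 in wild type livers. Its log2 fold change was 0.04 (SE 0.13, 95% interval -0.24 to 0.33) and did not pass (limma, adjusted p = 0.96). Fetub, which encodes fetuin-B, had 328, 228 and 231 FPKM in knockout livers and 364, 310 and 281 in wild type livers. Replicate 1 was the highest library in both genotypes, and knockout replicate 1 was the only knockout library to reach the wild type range. The log2 fold change was -0.29 (SE 0.17, 95% interval -0.66 to 0.08; limma, adjusted p = 0.63), and without replicate 1 of both genotypes it was -0.36 and passed (limma, adjusted p = 0.011).

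Further along that stretch of chromosome 16 lie 3 more genes of the same protein family. Hrg, next to Fetub, stood at 457 ± 15.0 and 446 ± 46.8 FPKM (limma, adjusted p = 0.97). Kng2 was at 138, 120 and 118 FPKM in knockout livers and at 169, 150 and 152 in wild type livers (log2 fold change -0.32; limma, adjusted p = 0.38). Kng1, the kininogen gene, stood at 806 ± 90.8 and 1014 ± 49.0 FPKM (-0.34; limma, adjusted p = 0.41). In both kininogen genes all knockout values lay below all wild type values, and 15.4% of all tested genes were fully separated in either direction. Beside Hrg, Kng1 and Kng2 the list held the cystatin gene Cst3 and, from outside the family, the plasma inhibitor genes Itih1, Itih2, Itih3 and Itih4. Of these 8 none passed (limma), and Kng1, Kng2 and Itih2 had an unadjusted p under 0.05, where 9.93% of all tested genes did. The fold change was negative in 7 of the 8 (median -0.16) and positive in 44.2% of all tested genes.

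Among 19 other tested liver-secreted factors none passed (limma), while 7 had an unadjusted p under 0.05, where 9.93% of all tested genes did, and 8 fold changes were positive and 11 negative. Igfbp1, a fasting-induced binding protein of insulin-like growth factors, was at 25.3, 108 and 117 FPKM in knockout livers and at 10.8, 23.9 and 24.7 in wild type livers (limma, adjusted p = 0.21). Like Angptl4, it was lowest in replicate 1 within the knockout. The acute phase gene Orm1 stood at 379 ± 75.6 and 690 ± 175 FPKM (limma, adjusted p = 0.11).

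**Figure D3:**
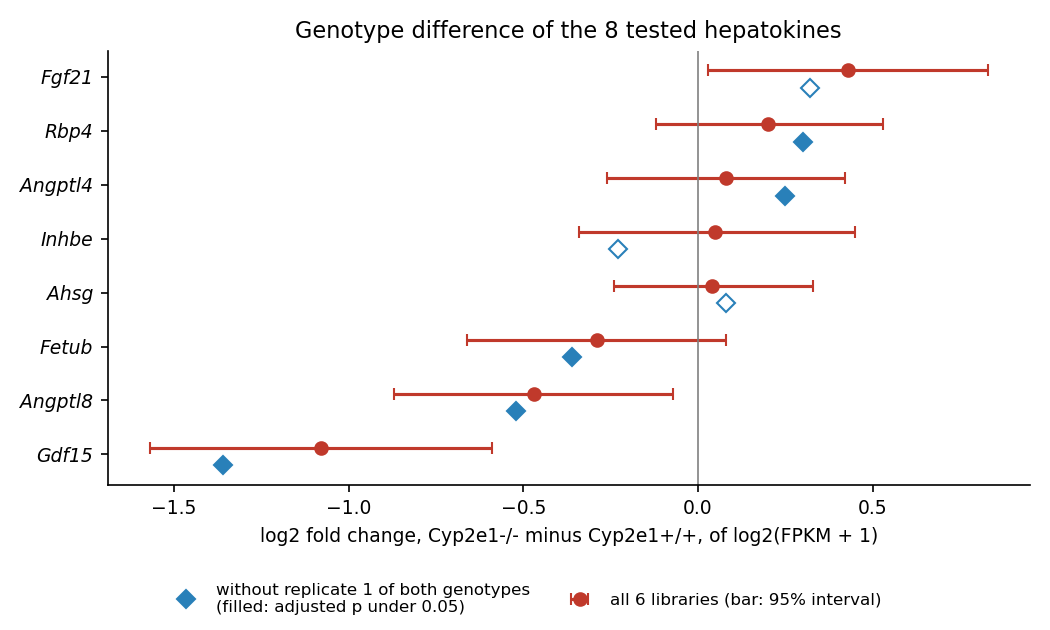
Log2 fold change of log2(FPKM + 1), knockout minus wild type (x axis), of the 8 tested hepatokines (y axis), as red points with 95% intervals from all 6 libraries and as blue diamonds without replicate 1 of both genotypes, filled where the adjusted p was under 0.05. The intervals of Gdf15, Angptl8 and Fgf21 lie to one side of 0, and without replicate 1 the genes Gdf15, Angptl8, Fetub, Angptl4 and Rbp4 are filled.

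With replicate 1 of both genotypes left out, which leaves 2 libraries per genotype, 5 of the 8 hepatokines passed and 11.9% of tested genes did (limma). These libraries were left out because they stood apart, which can itself raise the number of calls. No other replicate pair was left out for comparison. Gdf15, Angptl8 and Fetub were lower in the knockout, where 4.95% of tested genes were, and Rbp4 and Angptl4 were higher, where 6.92% were. Fgf21 (0.32), Inhbe (-0.23) and Ahsg (0.08) did not pass (limma, adjusted p = 0.29, 0.24 and 0.40). Replicate 1 differed from replicates 2 and 3 in a gene-specific way. On the log2(FPKM + 1) scale, Fetub lay 0.51 higher in knockout replicate 1 and 0.30 higher in wild type replicate 1, and Angptl8 lay 0.49 and 0.35 higher. Angptl4 lay 0.51 lower in knockout replicate 1 alone, and Gdf15 lay 0.80 lower in wild type replicate 1 alone. What sets these 2 libraries apart was not tested, and the labels name no batch.

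The counts of the further lists also moved when replicate 1 of both genotypes was left out, an alternative chosen for them after the data were seen (limma; 6.92% of all tested genes rose and 4.95% fell). Of the 20 PPARα targets 11 rose and 1, Cd36, fell, and of the 14 lipogenic genes 7 fell. Of the 15 ATF4 response genes 2 rose, Cebpb and Ddit4, and 3 fell, Asns, Cth and Ddit3. Of the 10 lipoprotein lipase genes Apoa5, Apoc2 and Apoe rose, and of the 8 receptor genes Insr rose and Stra6l fell. Kng1 and Kng2 fell among their 8 list genes, and Cebpa rose among the 12 transcription factors. Of the 19 other secreted factors 7 rose, Igfbp1 among them (2.17; limma, adjusted p = 2.4e-06), and 4 fell, Orm1 among them (-0.81; limma, adjusted p = 0.00017). No gene of the activin or retinol lists passed.

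Ratios of 2 hepatokines within a library do not depend on how the libraries were scaled. Fgf21 over Gdf15 was 3.76, 3.58 and 4.58 in the knockout and 1.30, 0.971 and 0.813 in wild type. The 2 transcripts thus had like FPKM in wild type, and Fgf21 was the higher in every knockout library. Gdf15, whose genotypes are fully separated, is the denominator, so the ratio carries that separation. The pairs were chosen after their values were seen, and how often ratios of other gene pairs separate was not computed. From the means, wild type Gdf15 was 2.89-fold above the knockout and knockout Fgf21 1.41-fold above wild type. Angptl4 over Angptl8 was 10.96, 24.0 and 22.0 in the knockout and 9.84, 12.7 and 13.0 in wild type, with knockout replicate 1 inside the wild type range. Rbp4 over Fetub was 13.2, 19.3 and 17.9 against 11.7, 11.1 and 12.4, without overlap. Of the other pairs computed, Inhbe over Gdf15 did not overlap, and it has Gdf15 as denominator too. Ahsg over Fetub (9.75 to 15.6 against 8.90 to 11.5) and Rbp4 over Ahsg (1.23 to 1.35 against 1.04 to 1.32) did.

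**Figure D4:**
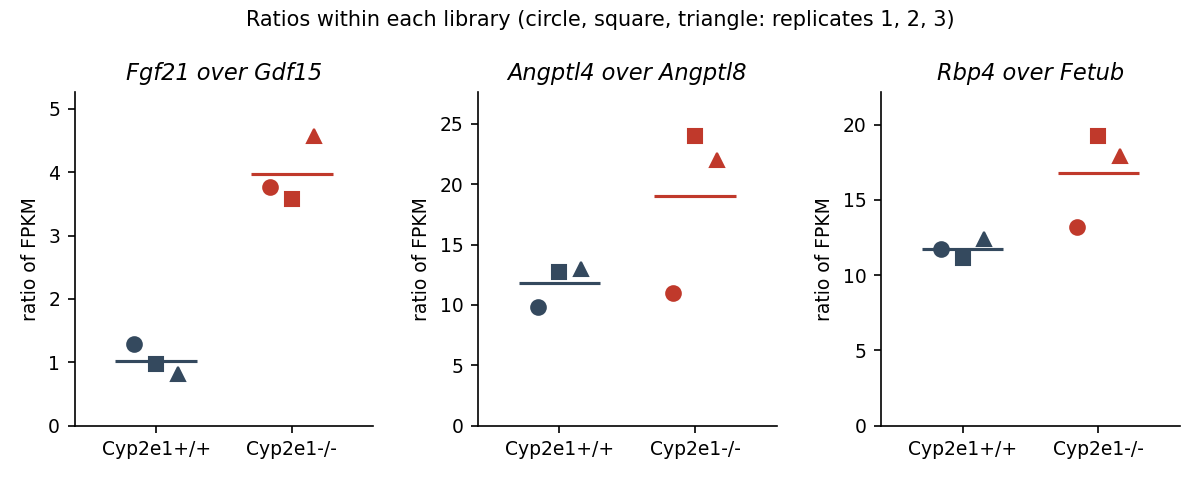
Ratio of the FPKM of 2 hepatokines within each library (y axis, linear, from 0) by genotype (x axis), for 3 pairs; symbols mark replicates 1 to 3 and lines the mean of 3 libraries. Fgf21 over Gdf15 runs from 3.58 to 4.58 in knockout livers and from 0.813 to 1.30 in wild type livers, while Angptl4 over Angptl8 overlaps between genotypes through knockout replicate 1.

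The genes most like the 3 leading hepatokines in pattern were found by Pearson correlation of log2(FPKM + 1) over the 6 libraries, among 5660 genes for Gdf15 and 5659 for the others with a mean of at least 5 FPKM. These values describe the same 6 libraries and, as the best of so many genes, are high by selection. For Gdf15 they were Dpys (r = 0.993), Stat2 (0.992) and Yipf5 (0.991), and 50 genes reached 0.95. For Angptl8 they were Ucp2 (0.994), Lgals9 (0.993) and Pa2g4 (0.989), and 44 genes reached 0.95. For Fgf21 they were Gpat3 (0.979), Irf2 (0.978) and Rnf10 (0.975), and 7 genes reached 0.95.

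Signals of other cell types were also read for the whole set. Summed stellate cell markers ran from 122 to 140 FPKM (knockout) and 122 to 156 (wild type), and summed sinusoidal endothelial markers 69.1 to 93.6 and 70.7 to 89.5, so both overlapped. The largest part of the endothelial sum was Clec4g (30.5 to 45.1 and 26.1 to 30.02 FPKM), and the fold change was negative in the other 7 of 8 markers (median of the list -0.28). None of their 7 and 8 tested markers passed (limma), the smallest unadjusted p being 0.10 and 0.11 for Dcn and Ecm1 (stellate) and 0.064 and 0.072 for Pecam1 and Oit3 (endothelial). Cholangiocyte markers summed to 18.9 to 21.7 and 25.4 to 32.4 FPKM, nearly all of it Spp1 (18.3 ± 1.35 against 27.0 ± 4.44; limma, adjusted p = 0.19), while Krt19, Krt7, Epcam and Sox9 stayed under 1. Red blood cell markers summed to 196 to 393 and 232 to 536 FPKM, and 1 of 3 tested fell, where 0.291% of all tested genes did. That was Alas2, the erythroid enzyme of heme synthesis (log2 fold change -2.23; limma, adjusted p = 2e-05), while the globin genes Hba-a1 (0.08) and Hba-a2 (-0.13) did not pass (limma, adjusted p = 0.98 and 0.95). Pancreas markers summed to 22.1 to 34.2 and 26.1 to 44.6 FPKM, mostly Cela1. Among 8 hepatocyte markers none passed (limma), with 4 at an unadjusted p under 0.05, where 9.93% of all tested genes did. These were Cps1 (0.56), Tat (0.85) and Hnf4a (0.33), with positive fold changes, and Fgb (-0.27). Without replicate 1 of both genotypes Apoa1, Cps1 and Tat rose and Fgb fell, and of the stellate, endothelial, cholangiocyte, red cell and pancreas markers Ecm1 rose and Lyve1, Spp1 and Alas2 fell (limma). The part of these cell types in the hepatokine values was not tested.

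**Figure D5:**
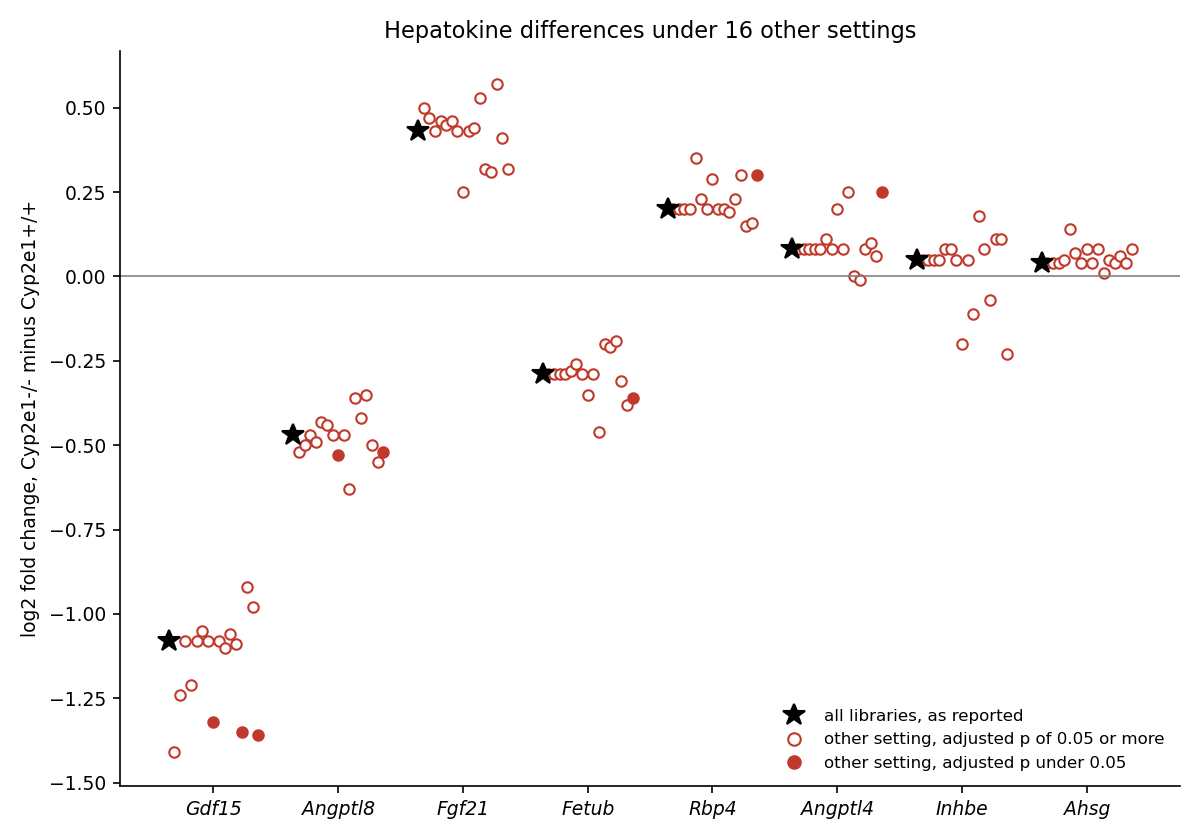
Log2 fold change of log2 FPKM, knockout minus wild type (y axis), of the 8 tested hepatokines (x axis) as reported (black star) and under 16 other settings (circles, filled where the adjusted p was under 0.05). Gdf15, Angptl8 and Fetub stay below 0 and Fgf21, Rbp4 and Ahsg above 0 in these settings, while Inhbe and Angptl4 fall on both sides.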

How the data were processed

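Whole-liver RNA of 6 mice was profiled. Per the labels' protocols, a miRNeasy kit (Qiagen) gave the RNA and a TruSeq kit (Illumina) the libraries. The submitters' processing notes name HISAT and mm10; no source used here names the program or annotation behind the expression values. The authors deposited FPKM to 2 decimals, per the file headers, and no counts. Low FPKM of short transcripts (450 to 1200 bases) fell on steps, 74.6% to 78.0% of them within 0.15 of a step (30% for values spread evenly), from which depth was estimated.

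The 9968 genes that reached 1 FPKM in 3 or more of 6 samples were tested on log2(FPKM + 1) with limma 3.58.1 (lmFit; eBayes, trended) under R 4.3.3, adjusted by Benjamini-Hochberg over all of them; the threshold was 0.05. Samples were grouped by genotype. Exact permutation tests used SciPy 1.17.1. The limma step was tested on simulated data (9968 genes) with noise drawn independently for each gene and library. Of genes changed by 1 on the log2 scale 78% were called, and of those changed by 2, 97%, with 10 false calls. No shift shared by the genes of a library was simulated, so these shares do not describe data in which replicate 1 stands apart. The labels do not say how the samples were taken, so p-values reflect only the spread among these 6.

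Replicate numbers come from the sample titles. Deviations from the group mean correlated at 0.300, 0.198 and 0.157 for numbers 1, 2 and 3 (and at 0.212 for knockout 3 with wild type 2), so a fit with the replicate as a block was an alternative. The members and the 18 further gene lists were chosen with earlier results of these data known. 1 gene of the lipoprotein lipase list is not reported here. All 9 members are described; of each further list the genes past the threshold are named, up to 4, or else the 2 with the smallest p, and for the 3 members with the smallest p the 3 genes most alike in pattern. Promoter sequences and gene positions are from RefSeq on GRCm38.p6, the assembly mm10 names. Alternatives were other pseudocounts, no filter, other scalings, eBayes without trend, sample weights, the block, and samples left out.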

Additional observations from a re-analysis of the deposited data

How the results depend on the processing

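Of 16 other settings, none moved the count of 0 hepatokines past the threshold except sample quality weights (2), leaving out wild type replicate 1 (1) and leaving out replicate 1 of both genotypes (5); leaving out 1 library at a time gave 0 to 1. Over all genes, 76 passed with all libraries, 32 with no filter on low values, 1151 with sample quality weights, 1183 without replicate 1 of both genotypes, and 29 to 211 with 1 library left out. Gdf15 stayed between -1.41 and -0.92 on the log2 scale (limma, adjusted p = 0.00028 to 0.28), Angptl8 between -0.63 and -0.35, Fetub between -0.46 and -0.19, Fgf21 between 0.25 and 0.57, Rbp4 between 0.15 and 0.35 and Ahsg between 0.01 and 0.14. The fold change of Angptl4 turned to -0.01 without knockout replicate 3. That of Inhbe, 0.05 with all libraries, turned to -0.20 with sample quality weights, -0.11 and -0.07 when replicate 1 of the knockout or of wild type was left out, and -0.23 when both were (with any 1 library left out it ranged from -0.11 to 0.18); the cause was not tested. With the replicate as a block, 0 hepatokines and 72 genes passed, Gdf15 had an adjusted p of 0.094 (limma), and among the genes named only Cth and Lyz2 lost their call. Of the other genes called, Acot3, Cth, Cyp4a31, Lyz2 and Pklr did not pass with no filter (limma, adjusted p = 0.15, 0.15, 0.061, 0.12 and 0.0531), and Acot3, Cth and Lyz2 did not under some other pseudocounts, scalings or the untrended fit (limma, adjusted p = 0.0506 to 0.10). Depth limits Fst and, less so, Gdf15, Fgf21 and Angptl8, each read from fewer than 100 estimated fragments per library.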
